A study of Mus musculus with 7 samples.

Results

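CD8 T cells of mouse malignant peripheral nerve sheath tumors (MPNSTs) were examined by single-cell RNA sequencing. They were chosen by transcripts alone: a cell was retained when at least 500 genes were detected and at most 10% of its unique molecular identifiers (UMIs, 1 per captured transcript) were mitochondrial, and it was taken as a CD8 T cell when it held at least 2 UMIs of the CD3 chains Cd3e, Cd3d and Cd3g together, at least 1 UMI of the CD8 chains Cd8a and Cd8b1, no UMI of Cd4 or Foxp3, and at most 1 UMI each of a macrophage trio (Csf1r, Adgre1 and Mrc1) and a tumor trio (Tafa1, Unc5c and Col11a1). This gave 286 CD8 T cells of 33136 retained cells. The genes of this and the other gates are therefore no findings here and were left out of every count of genes.

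The cells came from 7 tumors, each sequenced as its own library, so that the tumor was the replicate. JW23.3 cells, a single murine line with Nf1 knocked out, were injected subcutaneously on day 0 into female C57/B6 hosts aged 5 to 6 weeks. Groups were assigned at random on day 7, and every tumor was taken on day 21 and digested with papain. The irradiated group (4 tumors) received 5 daily fractions of 2 Gy with lead over the rest of the body, and the control group (3 tumors) received no radiation. The hosts kept their own immune system, and the tumors grew under the skin rather than in a nerve.

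CD8 T cells recognize peptides on MHC class I molecules through an alpha-beta T cell receptor, with the CD8 alpha and beta chains as coreceptor. Once activated, they kill target cells with granules that carry granzymes and perforin and with Fas ligand, and they secrete interferon gamma and chemokines. In tumors, lasting exposure to antigen is known to bring on inhibitory receptors such as PD-1 and LAG-3 and the transcription factor TOX, while a pool that keeps TCF-1 (encoded by Tcf7) can renew the others. RUNX3 is the transcription factor that holds the CD8 lineage and silences Cd4. Its core DNA motif, TGTGGT, can be looked for in promoters.

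Promoters of 4 genes whose transcripts separated CD8 T cells from the other T cells in the results that follow are shown for orientation: the cytotoxic granule gene Nkg7, the chemokine gene Xcl1, the receptor gene Cd160 and the NKG2D gene Klrk1. Each is the 250 bases before the transcription start (RefSeq, GRCm38.p6), written 5′ to 3′ on the strand of the gene. Capitals mark the match to TGTGGT or to its reverse complement ACCACA. The windows are chr7:43436888-43437137 (plus strand) for Nkg7, chr1:164935523-164935772 (minus strand) for Xcl1, chr3:96829352-96829601 (minus strand) for Cd160 and chr6:129623865-129624114 (minus strand) for Klrk1.
Nkg7: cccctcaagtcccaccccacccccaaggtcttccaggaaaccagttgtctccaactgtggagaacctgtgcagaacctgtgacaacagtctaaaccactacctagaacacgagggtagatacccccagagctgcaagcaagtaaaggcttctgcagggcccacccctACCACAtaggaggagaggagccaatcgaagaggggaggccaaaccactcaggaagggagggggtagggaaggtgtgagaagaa
Xcl1: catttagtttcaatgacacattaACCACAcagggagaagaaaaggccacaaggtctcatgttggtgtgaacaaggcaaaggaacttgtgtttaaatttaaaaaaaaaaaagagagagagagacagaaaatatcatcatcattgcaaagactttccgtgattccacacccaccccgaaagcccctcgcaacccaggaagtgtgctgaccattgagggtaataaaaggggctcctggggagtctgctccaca
Cd160: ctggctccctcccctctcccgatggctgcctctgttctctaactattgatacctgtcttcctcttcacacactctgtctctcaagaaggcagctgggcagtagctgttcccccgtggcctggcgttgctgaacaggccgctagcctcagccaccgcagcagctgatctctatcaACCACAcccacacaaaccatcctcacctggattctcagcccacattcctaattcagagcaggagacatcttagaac
Klrk1: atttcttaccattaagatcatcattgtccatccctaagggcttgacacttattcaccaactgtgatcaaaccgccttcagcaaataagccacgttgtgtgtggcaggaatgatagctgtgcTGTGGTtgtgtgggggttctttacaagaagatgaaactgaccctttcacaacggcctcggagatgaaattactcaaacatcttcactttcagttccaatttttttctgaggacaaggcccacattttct

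Each of these windows holds 1 match. They were picked after the values were seen, as the leading gene of a list that holds the motif. The motif stood in 35 of the 228 promoters (15.4%) found for the 290 genes that were higher in CD8 T cells than in both other T cell classes, and in 19 of 242 (7.85%) found for the 321 genes that were lower. It stood in 356 of 3387 promoters (10.5%) of the genes tested against Cd4 T cells and in 3832 of all 27025 promoters of this length (14.2%). A match is a description of the letters and not a binding site, and no binding was measured here.

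Irradiated tumors 1 to 4 gave 66, 15, 44 and 65 CD8 T cells, and control tumors 1 to 3 gave 20, 26 and 50. The CD8 T cells of a tumor held 86264 to 417395 UMIs in sum, and the median cell held 2831.5 to 7357 UMIs depending on the tumor. Irradiated 2, with the fewest cells, was therefore the least certain in shares of cells, and control 2, with the fewest UMIs, in levels. The libraries were divided into 2 sets by cell number, UMIs, genes and mitochondrial share over all deposited cells. The split with the least variation within sets was taken, which left 0.489 of the variation within them, against 0.544 for the next split. It crossed the groups and is not given by the labels. Irradiated 1 with controls 2 and 3 made set 1, and the other 4 tumors made set 2. A barcode occurred in more than 1 library 190 times among all deposited cells, 4 CD8 T cells carried such a barcode, and no barcode was shared between CD8 T cells of different libraries.

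The label was checked against transcripts that the gate did not use. Trac, the constant gene of the alpha chain, was detected in 237 CD8 T cells (82.9%) and Trbc1 or Trbc2, those of the beta chain, in 268 (93.7%), so that 282 of the 286 cells (98.6%) held at least 1 of them. Trdc, the delta chain constant gene, was found in 5 cells (1.75%), and none of those lacked both alpha and beta chain transcripts. Trgc2, a gamma chain constant gene, was detected in 76 cells (26.6%), of which 73 also held a beta chain transcript. Xist, transcribed in the female hosts, was detected in 91.3% of CD8 T cells, in 92.7% of cells gated as macrophages and in 5.17% of cells gated as tumor cells, whose median depth of 23662 UMIs was far above the 4016.5 of CD8 T cells.

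Both CD8 chains were detected in 185 cells (64.7%), Cd8a alone in 45 (15.7%) and Cd8b1 alone in 56 (19.6%). In irradiated tumors 1 to 4, Cd8a stood at 518, 452, 559 and 570 CPM (UMIs of the gene per 1000000 UMIs of the sum) in the summed CD8 T cells, and in control tumors 1 to 3 at 485, 290 and 394 CPM. Gzmb, the granzyme B gene, was found in 56.8% of the cells with both chains, in 26.7% of those with Cd8a alone and in 28.6% of those with Cd8b1 alone. The median depth of these cells was 4444, 3715 and 3385 UMIs, so depth moved in the same direction, and its part was not tested.

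At the edge of the gate, 44 members held exactly 1 UMI of the CD8 chains, and 242 held 2 or more. Pooled over tumors, Nkg7 stood at 1130 CPM in the former and 1450 CPM in the latter. Just outside, 351 cells with 2 or more CD3 UMIs held no UMI of Cd8a, Cd8b1, Cd4 or Foxp3 and had Nkg7 at 414 CPM, and 18 cells with CD8 chains but also Cd4 or Foxp3 had it at 210 CPM. The limit on macrophage and tumor genes kept out 26 further cells with a median of 22137 UMIs.

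Markers of other cells were summed over the CD8 T cells of each tumor. Granulocyte and mast cell genes were nearly absent, with 1 of 12 detected, S100a8, S100a9 and Cpa3 at 0 UMIs and sums of at most 4.99 CPM. For B and plasma cells 4 of 12 genes were detected, with Cd79a, Ms4a1 and Jchain at 0 and sums of 39.0 to 120 CPM in irradiated and 52.6 to 104 CPM in control tumors. For endothelial cells it was 5 of 12 (38.3 to 93.6 and 46.4 to 105 CPM, with Flt1 and Cldn5 at 0) and for red cells and platelets 3 of 8 (0 to 123 and 23.2 to 29.9 CPM, with Hbb-bt and Alas2 at 0). Tumor cell genes (14 of 18 detected, Col2a1, Igf2, Mia and Dlk1 at 0) summed to 109 to 318 CPM in irradiated and 220 to 613 CPM in control tumors. Macrophage genes (18 of 18 detected) summed to 343 to 2160 and 713 to 1070 CPM. Dendritic cell genes (14 of 18 detected, Xcr1, Clec9a, Cd209a and Siglech at 0) summed to 323 to 541 and 275 to 3310 CPM. Some single cells held many of these transcripts, and the part of single cells in the sums was not tested. One cell of control 3 held 272 UMIs of Cd74 and 143 of H2-Aa, and one of irradiated 1 held 43 UMIs of Apoe and 29 of C1qa.

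CD8 T cells took up a larger share of the tumor in most irradiated tumors, but the groups overlapped. They made up 1.05% of retained cells in irradiated 1 (95% Wilson interval 0.824 to 1.33), 0.649% in irradiated 2 (0.394 to 1.07), 1.45% in irradiated 3 (1.08 to 1.94) and 2.21% in irradiated 4 (1.74 to 2.81). In controls 1 to 3 they made up 0.395% (0.256 to 0.610), 0.377% (0.257 to 0.552) and 0.759% (0.577 to 1.00). These intervals cover counting error only. Irradiated 1, 3 and 4 lay above all controls, and irradiated 2 lay below control 3.

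Irradiated tumors averaged 1.34% ± 0.668 (SD, n = 4) and control tumors 0.511% ± 0.216 (SD, n = 3), which is 0.829 percentage points apart. The two-sided exact permutation test over all 35 splits of the tumors gave p = 0.114 (adjusted p 0.229 over the 2 shares compared), where the smallest p it allows is 0.0286. The difference was 0.479 points within set 1 and 1.04 points within set 2, each with too few tumors for a test. Without irradiated 4 it was 0.537 points. With cells that hold Ptprc, the gene of the leukocyte antigen CD45, as the denominator, it was 1.44 points (exact permutation p = 0.0857).

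**Figure D1:**
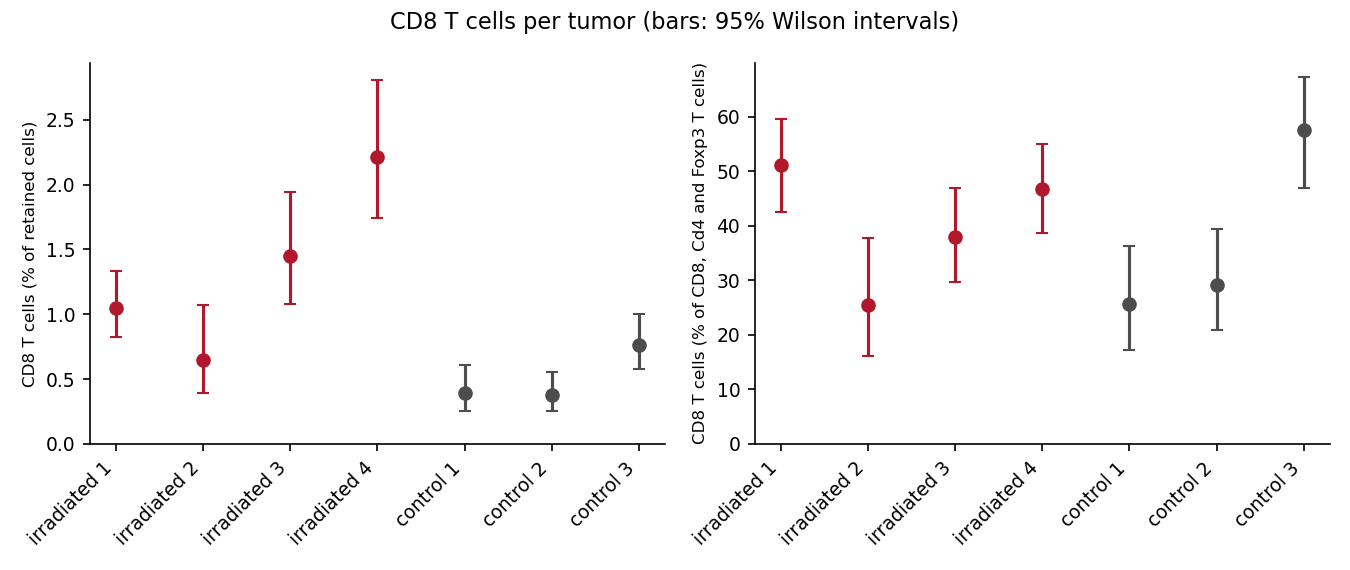
CD8 T cells as a percentage of retained cells (left) and of the CD8, Cd4 and Foxp3 T cells together (right) in each tumor; points are tumors and bars their 95% Wilson intervals. In the left panel 3 of 4 irradiated tumors lie above all controls, and in the right panel the groups overlap, with control 3 highest at 57.5%.

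Among T cells the share did not separate the groups. Gated T cells were the 286 CD8 T cells with 231 Cd4 T cells (Cd4 present, CD8 chains and Foxp3 at 0) and 180 regulatory T cells (Foxp3 present, CD8 chains at 0). CD8 T cells made up 51.2%, 25.4%, 37.9% and 46.8% of them in irradiated tumors 1 to 4 and 25.6%, 29.2% and 57.5% in controls 1 to 3. The means were 40.3% ± 11.4 (SD, n = 4) and 37.4% ± 17.4 (SD, n = 3), a difference of 2.88 points (two-sided exact permutation p = 0.829). Control 3 decided this value, since without it the difference was 12.9 points, and without control 1 it was -3.02 points.

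The functional state of CD8 T cells was described by 19 genes. The share of cells with at least 1 UMI depends on depth, so it is given as found and again after each cell was thinned to 2000 UMIs, for which 264 CD8, 190 Cd4 and 160 regulatory T cells were deep enough. These shares pool the cells of all tumors and carry no test. Macrophage-gated cells serve as the background level where they are known to lack a gene.

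Transcripts of effector function were widespread. Ccl5, a chemokine of activated T cells, was found in 81.8% of CD8 T cells and in 70.5% after thinning, against 30.0% of Cd4 T cells, 31.2% of regulatory T cells and 8.11% of macrophage-gated cells after thinning. Ifng, the interferon gamma gene, was found in 40.6% and, thinned, in 28%, against 14.2% of Cd4 T cells and 0 of 160 thinned regulatory T cells, which allows a share of cells with a UMI of up to 1.88% by counting error alone. Before thinning the regulatory T cells held 3 UMIs of Ifng. Gzmb was found in 46.5% (34.8% thinned), Gzmk, the granzyme K gene, in 25.9% (14.4% thinned) and Prf1, the perforin gene, in 16.4% (9.09% thinned). Of the thinned Cd4 T cells, 20% held Gzmb, 6.32% Gzmk and 1.05% Prf1. Gzmb was found in more of the thinned regulatory T cells (41.2%) than of the CD8 T cells, whereas Gzmk was found in none of them and Prf1 in 1.88%.

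Inhibitory receptors were found on part of the cells. Pdcd1, which encodes PD-1, was detected in 39.9% of CD8 T cells (28.8% thinned, against 14.7% of Cd4 T cells, 13.8% of regulatory T cells and 0.103% of macrophage-gated cells). Lag3 was detected in 19.6% (10.2% thinned, against 3.68% and 1.88% of Cd4 and regulatory T cells). Ctla4 went the other way, with 26.1% of thinned CD8 T cells against 57.9% of Cd4 and 81.2% of regulatory T cells. Havcr2, which encodes TIM-3, was detected in 17% of thinned CD8, 20% of Cd4 and 18.8% of regulatory T cells. It was also found in 24.3% of thinned macrophage-gated cells, which express it themselves, so macrophages give no background level for this gene. Tox was detected in 72.7% (62.5% thinned), against 68.9% and 82.5% of thinned Cd4 and regulatory T cells.

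Counted per cell, 89 CD8 T cells (31.1%) held none of the 5 receptor transcripts Pdcd1, Lag3, Havcr2, Tigit and Ctla4, 72 (25.2%) held 1, 54 (18.9%) held 2, 40 (14%) held 3, 26 (9.09%) held 4 and 5 (1.75%) held all 5. The median depth was 4128 UMIs in the cells with none and lay between 3496.5 and 4039.5 UMIs in those with 1 to 3. It was 7671 UMIs in the cells with 4 and 9255 UMIs in those with all 5, so only the cells with 4 or 5 were deeper. Cells with Pdcd1 held Tox in 93.0% and Lag3 in 37.7%, against 59.3% and 7.56% of the cells without it. Tcf7 went the opposite way and was found in 24 of 114 cells with Pdcd1 (21.1%) and in 72 of 172 without (41.9%). It was also found in 10.7% of cells with Havcr2 and 41.7% of cells without. These pairings use all UMIs of a cell and pool the tumors, and the part of depth and tumor in them was not tested.

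Genes of naive and memory cells were found in unequal shares of CD8 T cells. Tcf7, a transcription factor of naive, memory and progenitor cells, was detected in 33.6% (21.2% thinned) and Il7r in 29.7% (18.2% thinned, against 46.3% of Cd4 and 48.1% of regulatory T cells). Ccr7, which guides naive T cells to lymph nodes, was detected in 9.44%. Klrg1, a receptor of short-lived effector cells, was detected in 1.40%. Of the genes linked to residence in tissue, Cd69 and Cxcr6 were found in 72.0% and 59.1%, but Itgae, the integrin CD103 gene, in 9.44% only, where 5.68% of thinned CD8 T cells stood against 15.3% of Cd4 and 19.4% of regulatory T cells. Mki67 or Top2a, transcribed in dividing cells, was found in 34.6% of CD8, 28.6% of Cd4 and 33.3% of regulatory T cells.

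**Figure D2:**
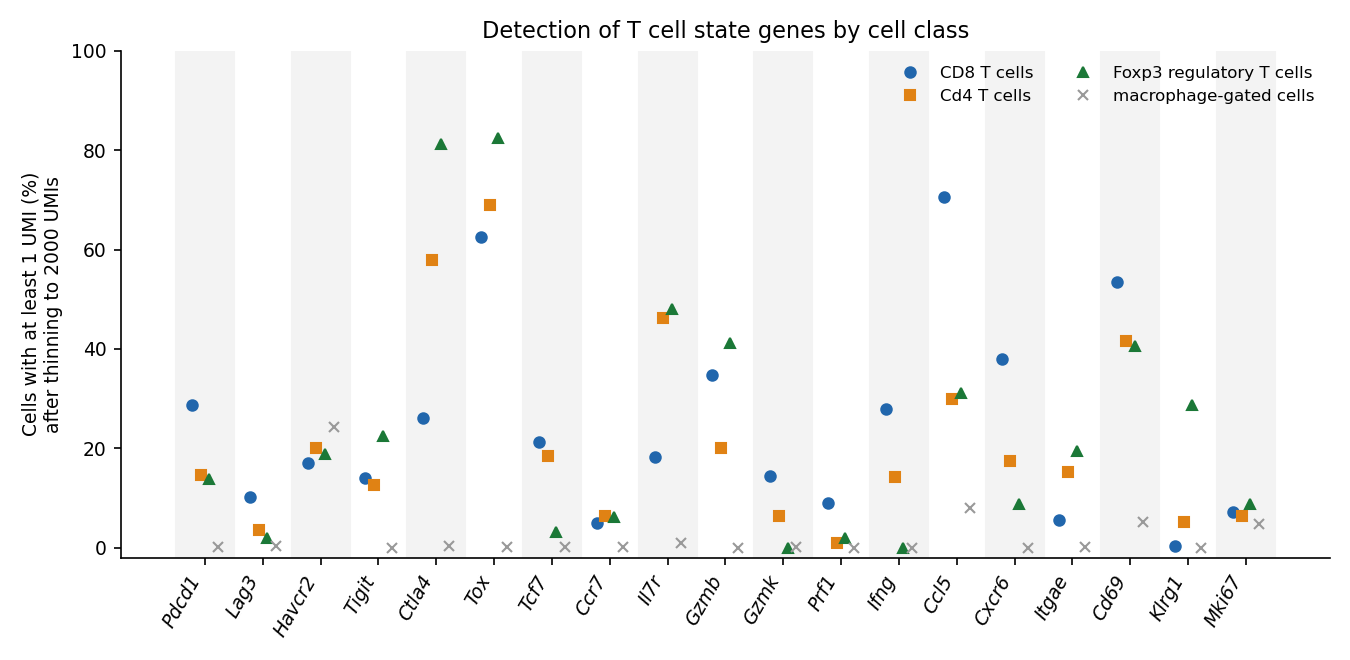
Percentage of cells with at least 1 UMI of each of 19 state genes after every cell was thinned to 2000 UMIs, in CD8, Cd4, regulatory T and macrophage-gated cells pooled over the 7 tumors. CD8 T cells lie above the other 3 classes for Ccl5, Pdcd1, Ifng and Gzmk, and below both other T cell classes for Ctla4 and Itgae.

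The tumors differed in these states. Pdcd1 was detected in 43.9%, 26.7%, 45.5% and 47.7% of the CD8 T cells of irradiated tumors 1 to 4 and in 45.0%, 15.4% and 34.0% of those of controls 1 to 3. Control 2 was lowest for Pdcd1, Lag3 (3.85%), Havcr2 (7.69%), Ctla4 (19.2%) and Gzmb (15.4%), and its CD8 T cells had a median of 3393 UMIs. After thinning it was still lowest for Lag3, Ctla4 and Gzmb, but irradiated 2 was lower for Pdcd1 (6.67% against 13%) and irradiated 3 for Havcr2 (6.98% against 8.70%). Irradiated 2 stood apart for Tcf7, found in 86.7% of its 15 cells against 19.7% to 45.5% in the other tumors, and for Ccr7 (40.0% against at most 12.3%). Gzmk was found in 0 of those 15 cells, which allows a share of cells with a UMI of up to 20%. Mki67 or Top2a was found in 73.3% of them and in 21.2% to 46.2% of the CD8 T cells of the other tumors. With a median of 7357 UMIs these cells were also the deepest. After thinning, Tcf7 was found in 40.0% of them against 14% to 27.9% in the other tumors, and Ccr7 in 26.7% against at most 9.09%. Mki67 or Top2a was not counted after thinning. Mki67 alone was found in 33.3% of the cells of irradiated 2 before thinning, against 3.03% to 20.5% in the other tumors. It did not stand apart after thinning, with 6.67% in irradiated 2 and 1.75% to 15.8% in the other tumors.

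To ask which genes set CD8 T cells apart from other T cells, their UMIs were summed per tumor and compared with those of the Cd4 T cells of the same tumors by the quasi-likelihood test of edgeR, adjusted by the Benjamini-Hochberg method. Of 4250 genes tested outside the gates, 728 passed an adjusted p of 0.05 (17.1%), of which 326 were higher (7.67%) and 402 lower (9.46%) in CD8 T cells. Receptors shared with natural killer (NK) cells had the highest median of the lists, and costimulatory receptors were mostly lower. Each list is given by how many of its tested genes passed in each direction, beside these shares and the median log2 fold change of all tested genes, which was 0.01.

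**Figure D3:**
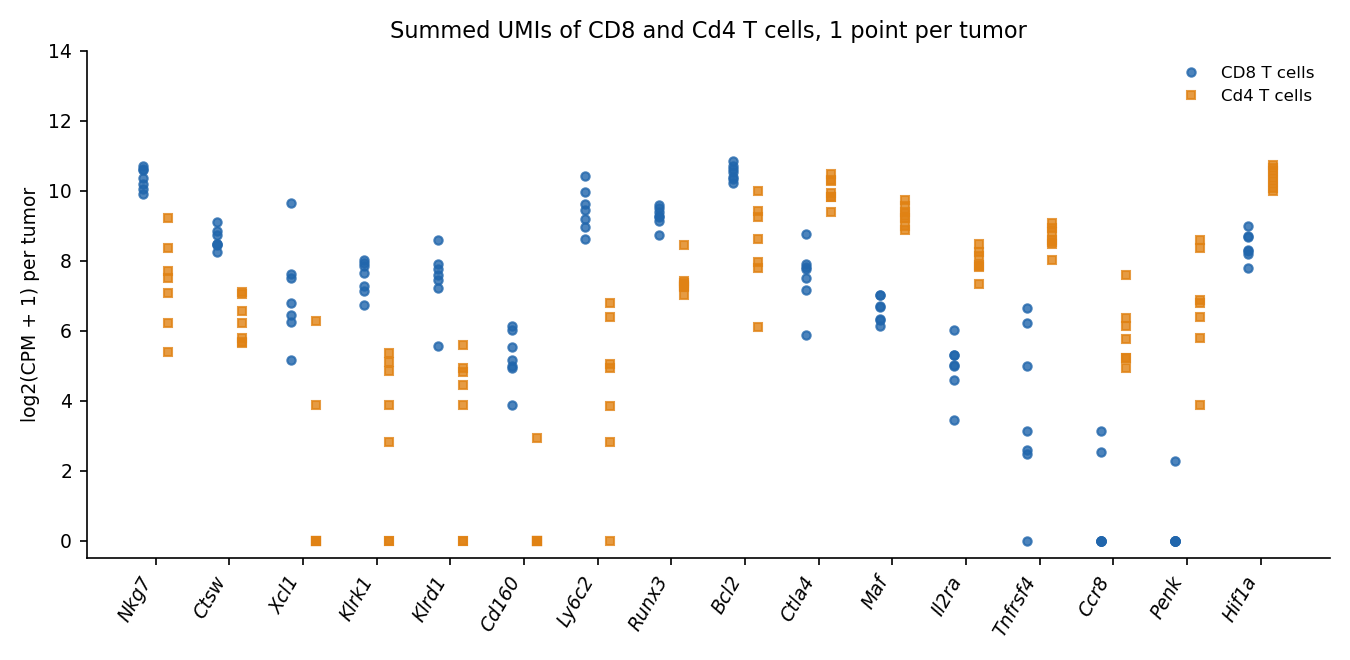
Level of 16 genes in the summed UMIs of CD8 and Cd4 T cells, as log2(CPM + 1), with 1 point per tumor and class (7 tumors). The classes do not overlap for Nkg7, Klrk1, Runx3, Maf, Il2ra and Hif1a, and they overlap for Xcl1.

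Of 11 NK receptor genes tested, 9 were higher in CD8 T cells and none was lower, with a median log2 fold change of 3.2. Klrk1, which encodes the activating receptor NKG2D and whose promoter is printed above, ran from 105 to 260 CPM over the 7 tumors in CD8 T cells (median 200 CPM) and from 0 to 39.9 CPM in Cd4 T cells (median 13.6 CPM). The ranges did not overlap, and the log2 fold change was 3.5 ± 0.41 (SE; adjusted p = 4.57e-06). Klrd1, which encodes CD94, the partner chain of the NKG2 receptors, ran from 46.4 to 386 CPM against 0 to 46.9 CPM (3.48 ± 0.44; adjusted p = 4.06e-05). Klrc1, the gene of the inhibitory partner NKG2A, was 3.20 ± 0.39 higher (adjusted p = 6.42e-06), but it shares sequence with its paralog Klrc2, so the split of reads between them is uncertain. Slamf7, Hcst and Klre1 were also higher. Klra7 was at 0 UMIs in all Cd4 T cells and at least 8.71-fold higher in CD8 T cells, counting 3 UMIs for the whole Cd4 group, and reads of Ly49 family genes cannot be told apart with certainty. It was at 0 in the CD8 T cells of 3 tumors too, and was not called by the DESeq2 Wald test (adjusted p = 0.661, the largest over its alternatives, with 1.47e-05 the smallest).

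NK cell markers were read beside this list. In the summed CD8 T cells 11 of 14 NK markers were detected. Their sums, which include Nkg7, were 1130 to 1970 CPM in irradiated and 1220 to 1850 CPM in control tumors. Ncr1, Cma1 and Khdc1a were at 0, whereas Klrb1c, the other gene of the NK gate, Eomes and Fcer1g were among those detected. The alpha or beta chain of the T cell receptor was detected in 98.6% of the same cells. Markers of gamma-delta and innate-like T cells (13 of 14 detected) summed to 23.4 to 759 CPM in irradiated and 23.2 to 269 CPM in control tumors. Of these, Trgc2 was higher in CD8 than in Cd4 T cells by 4.47 on the log2 scale (SE 0.49; adjusted p = 9.28e-07). A direct comparison with NK cells was not made, since 51 cells were gated as NK cells and 1 tumor alone gave the required 10.

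Among genes of cytotoxic granules and killing, 5 of 11 were higher and 2 lower (median 0.60). Nkg7, which takes part in the release of granules, stood at 1330, 1060, 1660 and 1540 CPM in the CD8 T cells of irradiated tumors 1 to 4 and at 1580, 951 and 1180 CPM in those of controls 1 to 3. In Cd4 T cells it stood at 208, 328, 73.4 and 597 CPM and at 134, 180 and 40.9 CPM. Every CD8 value was above every Cd4 value, with a log2 fold change of 2.80 ± 0.40 (adjusted p = 0.00178). Ctsw, the cathepsin W gene, averaged 401 ± 86.0 CPM (SD, n = 7) against 84.1 ± 37.6 CPM (2.33 ± 0.21; adjusted p = 3.39e-08 in the same fit), and Cst7, a protease inhibitor, was 1.83 ± 0.25 higher. Fasl, the Fas ligand gene, and Serpinb9, which protects the killer cell from granzyme B, were higher as well. Stx11, a syntaxin of granule release, was lower at a mean of 42.1 against 202 CPM (-2.12 ± 0.26), and Srgn, the granule proteoglycan, was lower. Gzmb, found in more CD8 than Cd4 T cells, did not pass (0.51 ± 0.53, adjusted p = 0.604), and its summed level was higher in the Cd4 T cells of irradiated 2 and 4 than in the CD8 T cells of the same tumors.

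Of 11 cytokine and chemokine genes, 2 were higher and 2 lower. Xcl1, whose product attracts cross-presenting dendritic cells, stood at 182, 85.8, 109 and 196 CPM in irradiated tumors 1 to 4 and at 35, 800 and 74.9 CPM in controls 1 to 3, against 0 to 76.2 CPM in Cd4 T cells (log2 fold change 3.87 ± 0.73; adjusted p = 0.00607). Control 2 was the highest by far. Ifng (0.42 ± 0.47, adjusted p = 0.624) and Ccl5 (1.55 ± 0.53, adjusted p = 0.105) did not pass against Cd4 T cells. Tnfsf8, the CD30 ligand gene, and Ltb were lower in CD8 T cells.

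Inhibitory receptors and exhaustion genes were divided, with 3 of 23 higher and 4 lower. Cd160, a receptor of cytotoxic lymphocytes, had 58 UMIs in CD8 and 1 UMI in Cd4 T cells (adjusted p = 0.000324). Pdcd1 was 1.08 ± 0.27 higher (adjusted p = 0.00652; 58.0 to 354 against 80.5 to 164 CPM), with overlapping ranges and a higher level in CD8 T cells in 5 of 7 tumors. Ctla4 was lower (-2.26 ± 0.24; adjusted p = 1.07e-05), at 58.0 to 436 CPM in CD8 and 671 to 1420 CPM in Cd4 T cells. Maf, a transcription factor of helper and regulatory T cells, was lower at 98.4 ± 23.6 against 637 ± 132 CPM (SD, n = 7; adjusted p = 7.29e-10 in edgeR). Tox (-0.35 ± 0.17, adjusted p = 0.184) and Lag3 (1.11 ± 0.53, adjusted p = 0.168) did not pass.

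Lists of effector memory and of naive and memory genes had calls in both directions. Runx3, a transcription factor of CD8 T cells, stood at 731, 616, 776 and 611 CPM in the CD8 T cells of irradiated tumors 1 to 4 and at 678, 429 and 559 CPM in those of controls, against 159, 151, 171 and 349 CPM and 154, 130 and 164 CPM in Cd4 T cells. No value overlapped (1.84 ± 0.18; adjusted p = 1.13e-07). Runx3 was among 4 of 19 effector memory genes that were higher, with Tbx21, S100a6 and Anxa2, while 5 were lower, among them Klrg1, Cd44 and Itgb7. Bcl2, which protects T cells from death, ran from 1190 to 1850 CPM against 68.4 to 1010 CPM (1.90 ± 0.35; adjusted p = 0.00593) and was 1 of 3 naive, memory and progenitor genes (12 tested) that were higher, with Ly6c2 and Foxp1. Ly6c2 has a close paralog, Ly6c1, and its level is uncertain for that reason. Il7r, the interleukin 7 receptor gene, was lower (29.2 to 257 against 249 to 526 CPM; adjusted p = 0.00652), and Tcf7 did not pass (0.25 ± 0.35, adjusted p = 0.696).

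Costimulatory receptors went mainly toward Cd4 T cells, with 9 of 16 lower, 1 higher and a median of -0.95. Tnfrsf4, which encodes OX40, ran from 0 to 99.3 CPM in CD8 and from 259 to 539 CPM in Cd4 T cells (log2 fold change -3.57 ± 0.45; adjusted p = 0.000391). Il2ra, the alpha chain of the interleukin 2 receptor, ran from 9.98 to 64.3 against 160 to 356 CPM (-2.82 ± 0.25; adjusted p = 1.61e-08). Icos and Tnfrsf18 were lower too, and Cd7 alone was higher (108 UMIs against 1 UMI). The Cd4 gate asks for 0 Foxp3 UMIs, and Il2ra, Tnfrsf4 and Ctla4 are also genes of regulatory T cells, where they averaged 510, 716 and 1930 CPM against 256, 408 and 1050 CPM in the gated Cd4 T cells. The number of regulatory T cells with undetected Foxp3 in the Cd4 gate was not tested.

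The calls in the other lists were as follows. Of 30 genes of the T cell receptor complex and its proximal signaling, 8 were higher, with Txk at 1.69 ± 0.22 and Themis at 0.66 ± 0.15, and 4 were lower, among them Cd5 and Cd2. Among residency genes 3 of 10 were higher, with Itga1 at 2.08 ± 0.43 and Cxcr6 at 0.95 ± 0.23, and 3 were lower. Of 7 chemokine receptors, Ccr8, Ccr4 and Ccr2 were lower. Gpr183 was called higher by a narrow margin (0.49 ± 0.17, adjusted p = 0.0449) and lost the call in 10 of 15 alternatives, with adjusted p values of 0.0141 to 0.218 over them. The type I interferon list had 2 of 36 higher and 1 lower (Ifi27l2a, -0.65 ± 0.15), and the type II list 4 of 29 higher, among them the immunoproteasome gene Psmb8, and 1 lower. The cell cycle list had 1 of 25 higher, the dissociation stress list 2 of 25 higher and 7 lower, and the glycolysis and hypoxia list 2 of 19 lower. Of the last, Hif1a, the oxygen-sensing transcription factor, ran from 222 to 508 CPM in CD8 and from 1010 to 1700 CPM in Cd4 T cells (-1.88 ± 0.16; adjusted p = 1.21e-08).

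**Figure D4:**
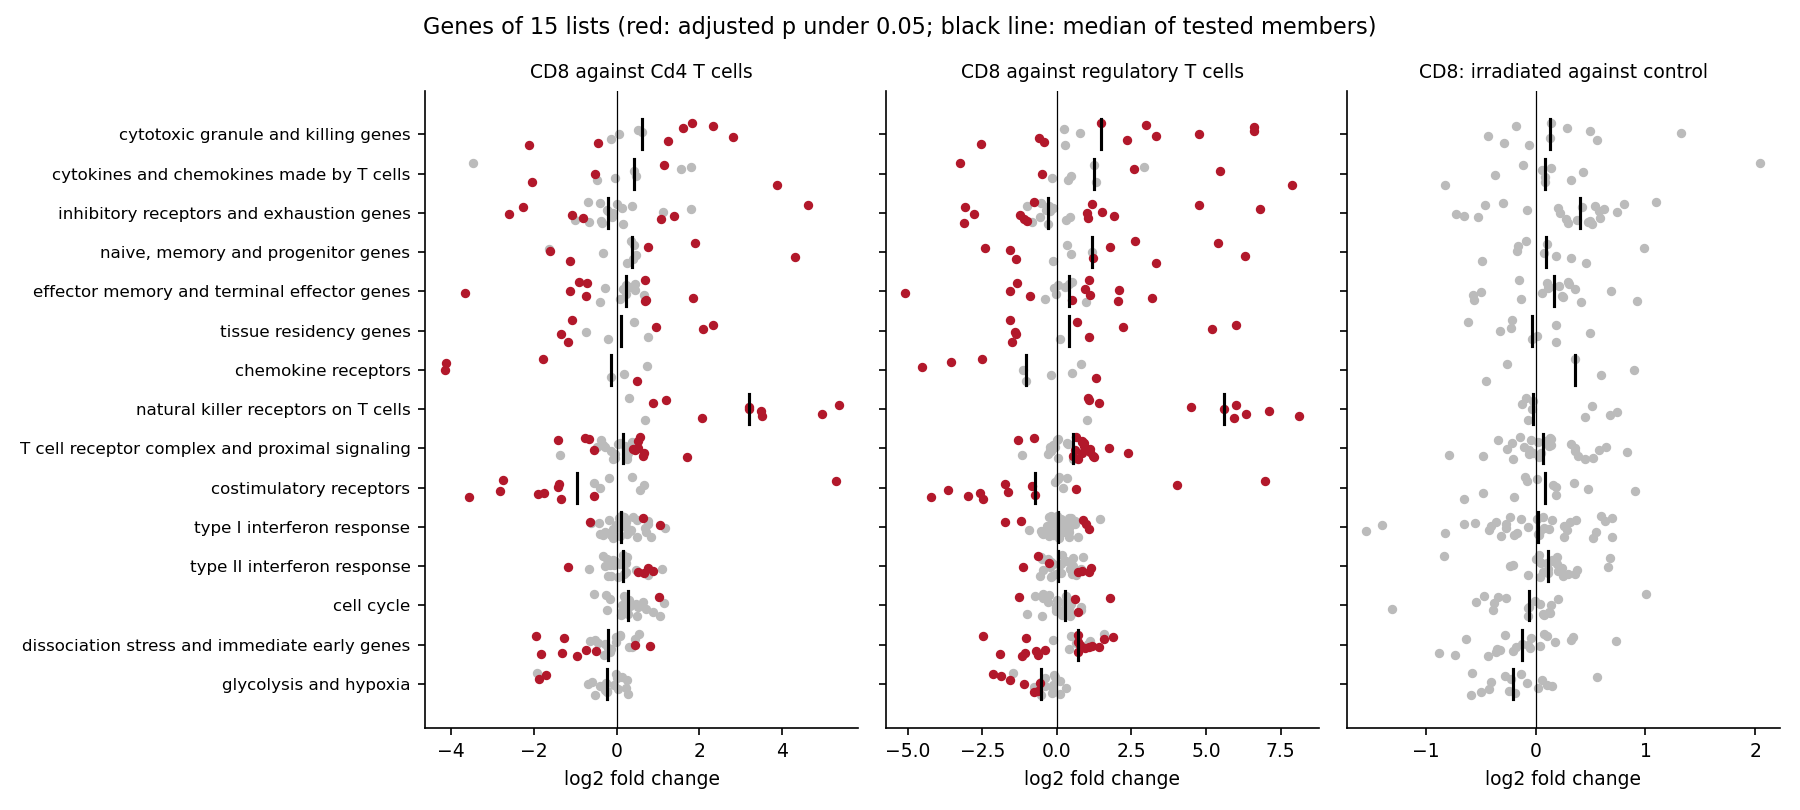
Log2 fold changes of the tested members of 15 gene lists in CD8 against Cd4 T cells, CD8 against regulatory T cells and, within CD8 T cells, irradiated against control tumors, on a scale of its own in each panel; red points passed an adjusted p of 0.05 and black lines are medians. NK receptors have the highest medians in the first 2 panels (3.2 and 5.59), and the third panel holds no red point.

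Outside the lists, Bend4, Samd3 and Lrrk1 were among the genes with the largest excess in CD8 T cells, with 206 against 2, 143 against 6 and 283 against 19 UMIs. Gm44174 had the largest log2 fold change, with 431 UMIs against 1. In the GENCODE annotation of the GRCm38 genome it lies 142 bases from Cd8a on the same strand. Its reads may therefore belong to Cd8a, and it counts as uncertain. Penk, which encodes the opioid precursor proenkephalin, was at the other end with 1 UMI in CD8 and 177 UMIs in Cd4 T cells. Frmd5 and Itgb8 followed with 8 against 282 and 9 against 250 UMIs. Prickle1, Tspan32 and the chemokine receptor genes Ccr8 and Ccr4 came next, with 3 to 5 UMIs in CD8 and 55 to 70 UMIs in Cd4 T cells.

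Against regulatory T cells the separation was wider. Of 5213 genes tested outside the gates, 1269 passed (24.3%), of which 614 were higher (11.8%) and 655 lower (12.6%) in CD8 T cells, with a median log2 fold change over all tested genes of 0.02. This comparison uses the same CD8 T cell sums as that with Cd4 T cells, so the calls are not independent. Of the 326 genes higher against Cd4 T cells, 290 (89.0%) were also higher here, which is 47.2% of the 614. Of the 402 lower, 321 (79.9%) were lower here, or 49.0% of the 655.

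Bcl2 had the smallest adjusted p of all genes. It ran from 1190 to 1850 CPM in CD8 and from 0 to 86.6 CPM in regulatory T cells, and the log2 fold change was 5.39 ± 0.20 (adjusted p = 3.81e-22). Nkg7 was 4.76 ± 0.47 higher (adjusted p = 0.000132) and was 1 of 7 killing genes of 13 that were higher, with 3 lower. Fasl had 264 UMIs against 1, and Ifng 313 UMIs against 3. Klrk1, Xcl1, Eomes, which encodes an effector transcription factor, and Gzmk were at 0 UMIs in all regulatory T cells. With 3 UMIs counted for that whole group they were at least 60.4-, 55.7-, 28.9- and 28.9-fold higher in CD8 T cells. Gzmk did not pass in the DESeq2 Wald test (adjusted p = 0.0898; the alternatives gave adjusted p values of 3.18e-14 to 0.0898). Of the NK receptor genes, 10 of 11 were higher.

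Tcf7 averaged 144 ± 76.5 CPM (SD, n = 7) in CD8 and 14.4 ± 18.5 CPM in regulatory T cells, with ranges that did not overlap (3.31 ± 0.40; adjusted p = 3.64e-08 in edgeR). Runx3 was 3.17 ± 0.21 higher (adjusted p = 3.75e-15), Tbx21, the gene of the type 1 transcription factor T-bet, 2.04 ± 0.32 (adjusted p = 1.61e-05) and Il12rb2, a receptor chain for interleukin 12, 4.03 ± 0.39 (adjusted p = 1.45e-10). Of 30 receptor signaling genes 15 were higher and 2 lower, led by Themis at 2.37 ± 0.18. Prf1 was 3.34 ± 0.65 higher (adjusted p = 9.18e-05) and stood at 0 in the regulatory T cells of 5 of 7 tumors. Gzmb did not pass (0.25 ± 0.20, adjusted p = 0.422), and its levels in CD8 T cells (185 to 616 CPM) and regulatory T cells (116 to 643 CPM) overlapped.

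Among the genes that were lower than in regulatory T cells, Ctla4 stood at a log2 fold change of -3.07 ± 0.21 (58.0 to 436 against 1340 to 2460 CPM; adjusted p = 1.47e-09), Il2ra at -3.65 ± 0.24 and Tnfrsf4 at -4.21 ± 0.54. Klrg1 ran from 0 to 11.7 CPM in CD8 and from 115 to 357 CPM in regulatory T cells (-5.08 ± 0.42; adjusted p = 2.52e-12). Itgae, although a residency gene of CD8 T cells in many tissues, was lower in CD8 T cells (23.2 to 93.5 against 41.0 to 288 CPM; -1.42 ± 0.27; adjusted p = 8.92e-05), while Cxcr6 was 2.22 ± 0.26 higher and 5 of 10 residency genes were higher in all, with 4 lower. Of the inhibitory list 7 of 25 were higher, with Pdcd1 at 1.05 ± 0.27 (adjusted p = 0.00324) and Lag3 at 1.51 ± 0.41 (adjusted p = 0.00493), and 7 were lower, with Tigit at -1.0 ± 0.28 (adjusted p = 0.00653).

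The remaining lists against regulatory T cells gave these counts. Costimulatory receptors had 3 of 17 higher and 9 lower, cytokines 3 of 11 higher and 2 lower, naive and memory genes 6 of 13 higher and 3 lower, and effector memory genes 7 of 19 higher and 4 lower. Chemokine receptors had 1 of 9 higher and 3 lower. Glycolysis and hypoxia genes had none of 21 higher and 7 lower, among them Hif1a (222 to 508 against 808 to 1930 CPM) and the glycolytic genes Ldha, Pgk1 and Pkm. Dissociation stress genes had 10 of 25 higher and 8 lower, the type I interferon list 3 of 41 and 2, the type II list 4 of 32 and 3, and the cell cycle list 3 of 34 and 1.

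The study asked whether irradiation changed the T cells of the tumor, so the CD8 T cells of the 4 irradiated and 3 control tumors were compared in the same way. Of 3749 genes tested outside the gates, none passed the quasi-likelihood test of edgeR at an adjusted p of 0.05 (0.0%), and the smallest adjusted p was 0.995. At an unadjusted p under 0.05 there were 144 genes, 67 higher and 77 lower in irradiated tumors. DESeq2's Wald test also called 0 genes, with 71 at an unadjusted p under 0.05. The groups did not overlap for 212 genes (5.65%), of which 122 were higher (3.25%) and 90 lower (2.4%). Of the 35 splits of the tumors, 1 puts all irradiated values above all controls, a share of 0.0286, and 1 puts them all below. Both shares of genes were therefore near what arbitrary labels give. The levels that follow are given as measured, and none of these differences passed.

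Genes tied to cytotoxic and type 1 function had mixed values. Gzmb stood at 436, 382, 516 and 616 CPM in irradiated tumors 1 to 4 and at 292, 185 and 509 CPM in controls 1 to 3. Irradiated 3 and 4 lay above all controls and the groups overlapped (log2 fold change 0.50 ± 0.29 (SE); unadjusted p = 0.1, adjusted p = 0.999 in edgeR). Tbx21 stood at 413, 203, 295 and 276 CPM against 81.8, 209 and 185 CPM (0.93 ± 0.32), with irradiated 2 inside the range of the controls. Ccl3, a chemokine of activated cells, stood at 173, 7.80, 69.8 and 101 CPM against 23.4, 11.6 and 25.0 CPM, where irradiated 2 lay below all controls and the other 3 above (2.04 ± 0.71). Gzmk stood at 114, 0, 132 and 127 CPM against 11.7, 58.0 and 54.9 CPM. The same irradiated 2 was at 0, and the others were above all controls (1.32 ± 0.76).

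Of the T cell genes that the study names, Zap70, a kinase of the T cell receptor, had all 4 irradiated tumors above all 3 controls, at 141, 156, 144 and 170 against 134, 92.7 and 94.8 CPM. The gap to the nearest control was narrow (0.45 ± 0.28; unadjusted p = 0.119, adjusted p = 0.999 in edgeR). Pdcd1 stood at 354, 70.2, 272 and 271 CPM in irradiated and at 234, 58.0 and 270 CPM in control tumors, so that a low tumor was found in either group (0.27 ± 0.50, and -0.044 without control 2). Ifi27l2a, an interferon-induced gene, stood at 854, 1890, 981 and 1290 CPM against 1070, 556 and 694 CPM (0.64 ± 0.30).

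Genes with no overlap between the groups and the smallest p are given next. Lyst, a regulator of lysosomes and cytotoxic granules, stood at 204, 226, 182 and 216 CPM in irradiated tumors 1 to 4 and at 105, 151 and 79.9 CPM in controls (0.92 ± 0.28; unadjusted p = 0.00461, adjusted p = 0.999 in edgeR). Plscr1, an interferon-induced phospholipid scramblase, stood at 150, 62.4, 81.5 and 120 CPM against 58.4, 11.6 and 34.9 CPM (1.41 ± 0.43). Usp47, a deubiquitinase, stood at 154, 148, 155 and 156 CPM against 58.4, 69.6 and 105 CPM. Vps41 and A330023F24Rik completed the higher side at 1.39 ± 0.43 and 1.54 ± 0.44.

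Among those that were lower, Magi3, a scaffold protein of cell junctions, had the smallest p of all genes. It stood at 40.9, 23.4, 27.2 and 35.9 CPM in irradiated and at 199, 92.7 and 59.9 CPM in control tumors (-1.87 ± 0.43; unadjusted p = 0.000391, adjusted p = 0.995 in edgeR). Rexo2, a mitochondrial exonuclease, stood at 54.5, 54.6, 54.3 and 69.5 CPM against 140, 104 and 140 CPM (-1.17 ± 0.29). Tank, an adaptor that restrains NF-kappa B signaling, stood at 286, 156, 175 and 242 CPM against 415, 371 and 424 CPM (-0.93 ± 0.24). Ifrd1 (-0.98 ± 0.25) and Diaph3 (-1.04 ± 0.27) were the others.

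**Figure D5:**
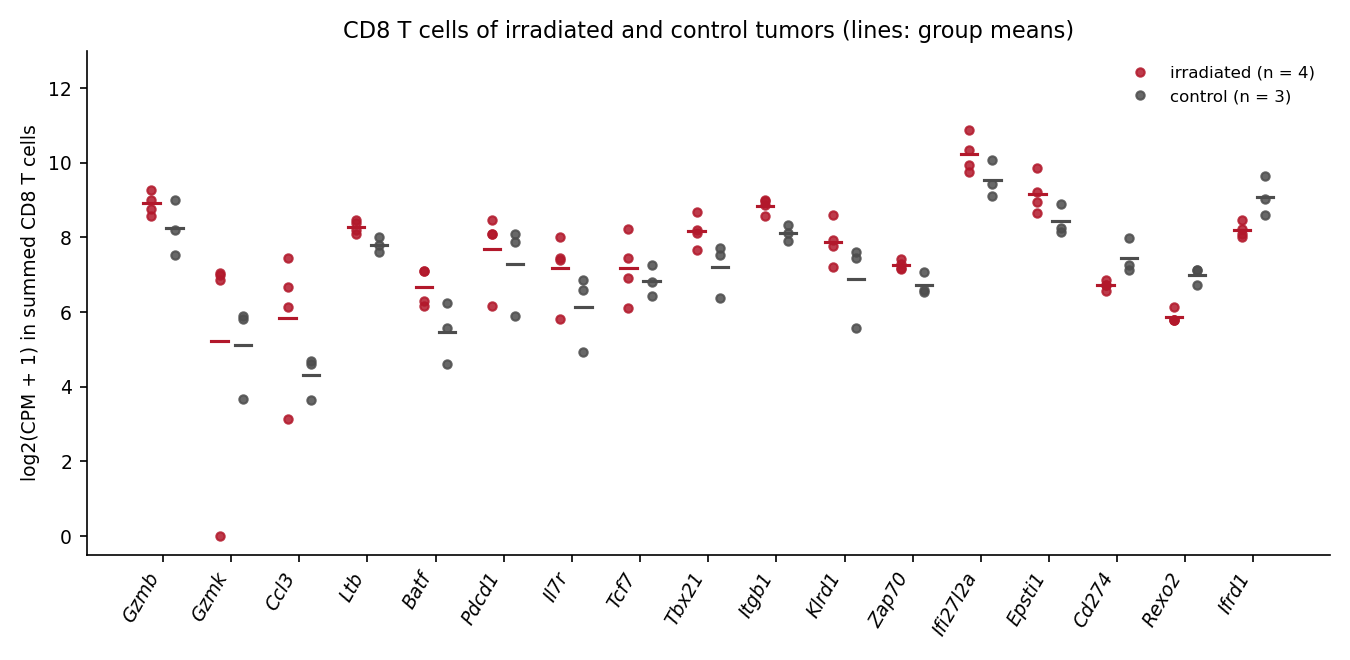
Level of 17 genes in the summed CD8 T cells of each tumor, as log2(CPM + 1), in irradiated (n = 4) and control (n = 3) tumors; lines are group means on this scale. The groups do not overlap for Zap70, Itgb1, Cd274 and Rexo2 and overlap for Gzmb and Pdcd1, and no gene passed the adjusted test.

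Lists were read by the direction of their members, beside 49.0% of all tested genes higher and a median of -0.01. Of 25 type II interferon genes 21 were higher in irradiated tumors (median 0.11), but Cd274, the PD-L1 gene, was lower at 104, 93.6, 116 and 105 against 140, 151 and 250 CPM (-0.83 ± 0.28). Of 22 inhibitory receptor and exhaustion genes 16 were higher (median 0.40), and of 18 effector memory genes 13 were (median 0.17), with Itgb1, an integrin chain, at 468, 499, 508 and 379 against 239, 278 and 319 CPM (0.69 ± 0.23). The type I interferon list was even, with 19 of 35 higher and a median of 0.02. In that list Rsad2 stood at 45.4, 172, 50.4 and 45.5 CPM against 17.5, 23.2 and 489 CPM, so that 1 tumor of each group was far above the others.

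Cytotoxic genes had 6 of 10 higher (median 0.14), cytokines 7 of 10 (0.08), naive and memory genes 6 of 10 (0.09), chemokine receptors 3 of 5 (0.36), receptor signaling 18 of 30 (0.07) and costimulatory receptors 7 of 12 (0.08). Residency genes had 4 of 9 higher (-0.04), NK receptors 4 of 9 (-0.03), the cell cycle list 8 of 19 (-0.06), dissociation stress 7 of 21 (-0.12) and glycolysis and hypoxia 5 of 16 (-0.21). Members of a list share tumors and are not independent, and none passed the test.

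Whether the difference between irradiated and control tumors was itself different in CD8 and Cd4 T cells was tested as an interaction over both classes. Of 4250 genes none passed (0.0%; smallest adjusted p 0.749 in edgeR), with 238 at an unadjusted p under 0.05, and DESeq2's Wald test called 0 genes with 70 at an unadjusted p under 0.05. The type I interferon list had 4 of 36 genes with a larger effect in CD8 than in Cd4 T cells (median difference of log2 fold changes -0.81) and the cell cycle list 3 of 25 (-0.66), beside -0.01 over all genes. NK receptors (10 of 11, 0.97) and residency genes (9 of 10, 0.50) went the other way, and so did dissociation stress genes (22 of 25, 0.33), the 8 macrophage and monocyte markers tested (7 of 8, 0.53) and both gamma-delta markers tested (3.78). The part of handling and of other cells in these differences was not tested. These are descriptions, since no single gene passed.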

How the data were processed

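The authors deposited, for each of 7 tumors, UMI counts per gene and called cell in sparse matrices (33696 genes, 39537 cells), which per the file headers came from Cell Ranger 8.0.0. The submitters' processing notes name mm10 and Seurat 4.4. The counts are not normalized. Genome coordinates are given only for RefSeq promoters of GRCm38.p6. The members and the gene lists were chosen with earlier results of these data known. Doublets were not called here, and the limits on macrophage and tumor genes stand in for a doublet filter. UMIs were summed per tumor and class, over classes with at least 10 cells in a tumor, and tested with edgeR 4.0.16 (filterByExpr, TMM, robust quasi-likelihood; R 4.3.3), with the tumor as a block between classes and Benjamini-Hochberg adjustment over all genes tested. The 15 genes of the gates entered the fits but no count. Scripts were tested on simulated data. Shares were compared by the two-sided exact permutation test. SE is the standard error of a log2 fold change. Named genes were, for each comparison, the leading genes that passed and had at least 50 CPM on average, or, where none passed, the 5 per direction with the smallest p and no overlap, the leading 3 members of each list, and genes that the study names for T cells. Some genes and 1 list that these rules cover are not reported here. Alternatives were DESeq2 1.42.0, other filters, gates and normalization, a technical term, a replicate block and each tumor left out. The permutation tests were enumerated in Python 3.11.15 with numpy 2.4.6, and scipy 1.17.1 gave the Wilson intervals. The labels do not state more than 1 library per tumor, so p-values between irradiated and control tumors measure the spread between tumors. Those between classes, and of the interaction, measure how the difference between classes varied from tumor to tumor.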

Additional observations from a re-analysis of the deposited data

Results flagged for a closer look

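Both CD8 T cell shares and the 60 named genes of the irradiation comparison gave 62 groups of 4 irradiated tumors. Each was examined for a tumor far from the others, in percent for shares and as log2(CPM + 1) for genes. Of the 62 groups, 7 were picked out, all of them genes, where chance picks about 1 in 20. A tumor was picked when its gap to the nearest other tumor, over the range on that scale, exceeded Dixon's 95% limit. Irradiated 2, with 15 CD8 T cells, accounted for 4 of them. It had Gzmk at 0.0 CPM (gap over range 0.97), Pdcd1 at 70.2 CPM (0.833), Rsad2, an antiviral interferon-induced gene, at 172 CPM (0.922) and Usp47 at 148 CPM (0.833), where the other 3 irradiated tumors lay at 154 to 156 CPM. Irradiated 4 had Rexo2 at 69.5 CPM (0.979), above the others at 54.3 to 54.6 CPM and still below all controls. Irradiated 3 had Ifitm3 at 27.2 CPM (0.853), and irradiated 1 had Lig1, a DNA ligase gene of dividing cells, at 4.54 CPM (0.841).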

How the results depend on the processing

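Between irradiated and control CD8 T cells the count of genes stayed at 0 in 14 of 16 alternatives, 0 to 0 with a tumor left out. Testing every gene with at least 1 UMI gave 13 genes, 11 of them lower in irradiated tumors, and for 8 of these 13 over 50% of all CD8 UMIs came from 1 cell of control 3 that also held Cd74 and H2-Aa. Ccl3 was among the 2 higher ones (2.10 ± 0.48, adjusted p 0.0233, where the adjusted p of Ccl3 ran from 0.0233 to 1.0 over its alternatives). The replicate block gave 1 gene, Gzmf, 121 of whose 141 UMIs came from 1 cell of control 1. The labels give both groups the same replicate numbers, but do not say that these pair the tumors. Samples with the same number did not deviate together (r -0.17, 0.06 and 0.02), and none had its own number as best partner. With so few tumors and CD8 T cells per group, these values cannot decide whether the numbers pair the tumors. With the replicate block the share of retained cells differed by 0.537 points and that of T cells by 0.731 points. The interaction gave 2 genes with every gene kept (Pclaf and Setbp1) and 0 to 1 with a tumor left out (Dnajb1 without control 2). The count against Cd4 T cells ran from 536 with DESeq2 to 837 with every gene kept, was 546 with no replicate block by tumor and 551 to 676 with a tumor left out. That against regulatory T cells ran from 961 with no replicate block to 1295, and 1020 to 1199 with a tumor left out. The share of retained cells differed by 0.537 to 1.06 points with a tumor left out and by 1.44 points among Ptprc cells. The share of T cells differed by -0.0346 points after thinning, 9.54 points with the technical set as a term and -3.02 to 12.9 points with a tumor left out. Of 80 named genes against Cd4 T cells 61 held their call in every alternative that tested them. Of 94 against regulatory T cells 75 did, and no gene reversed. Not every alternative tested every gene, since filters dropped some. Cd160 was tested in 7 alternatives against Cd4 T cells and in 10 against regulatory T cells. Among 60 named genes of the irradiation comparison 10 changed sign somewhere, and the cause was not tested. With the technical set as a term Cdh1 was 0.16, and with the replicate block 0.049. Itgae was 0.004 with the replicate block. With a tumor left out, log2 fold changes ran from -1.41 to 1.37 for Xcl1, -0.56 to 0.26 for Itgae, -0.75 to 0.13 for Gpr183, -1.14 to 0.70 for Trat1, -1.15 to 0.74 for Tnfrsf9, -0.81 to 0.50 for Fas, -0.88 to 0.20 for Tpi1, -0.96 to 0.56 for Eno1 and -0.044 to 0.58 for Pdcd1. Leaving out the 2 CD8 T cells with dendritic or macrophage transcripts, an alternative chosen after seeing the data, gave 0, 744 and 1271 genes in the 3 comparisons. The planned comparison with NK cells and its alternatives were not run, since 1 tumor alone gave at least 10 NK cells. Each tumor gave 15 to 66 CD8 T cells, and no limit of detection was measured.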

Other observations

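Variable segments of the T cell receptor were read where the 3' assay captured them. A beta chain segment was detected in 31 of 286 CD8 T cells (10.8%), with 15 of 35 segments seen, and an alpha chain segment in 47 (16.4%), with 31 of 130 seen. Some were found in 1 tumor mostly or alone. Trbv17 was found in 5 cells, 4 of them in irradiated 3, Trbv12-1 in 4 cells, 3 of them in irradiated 1, Trav6-5 in 4 cells, all in irradiated 1, and Trav13-4-dv7 in 4 cells, all in irradiated 4. No beta chain segment was captured in the 20 CD8 T cells of control 1, which allows a share of up to 15%. These counts are too few for a test, and segments of 1 family share sequence, so their assignment is uncertain.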
